A study of Mus musculus with 24 samples.

Results

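The promoter intervals of forkhead (Fox) and Sox genes were examined by ATAC-seq in mouse embryonic stem cells. An interval was a member when the deposited annotation named it for a Fox gene (letters a to s) or a numbered Sox gene, placed its centre at most 1000 bp from the annotated transcription start site and located it on chromosomes 1 to 19. A few genes of both families are not analysed here. The rule gave 37 of the 145143 intervals, 28 forkhead and 9 Sox, with 1 interval for each of 37 genes, among 16873 intervals that lay within 1000 bp of any start site. The same naming rule found 258 intervals at any distance, so 221 lay farther away. For 13 genes of these families, among them Foxm1, Foxo1, Sox9 and Sox6, the intervals used here lay only beyond 1000 bp, and these genes have no member.

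The study followed chromatin accessibility after induction of Firre, a nuclear long noncoding RNA, in 4 lines: a wild type control (n = 6 libraries), a wild type line carrying a doxycycline-inducible Firre transgene (n = 5), a Firre knockout control (n = 6) and a Firre knockout line carrying the same kind of inducible transgene (n = 6). Every line received doxycycline, the controls included, and was sampled once at 0, 30, 60, 90, 120 and 150 min. For the wild type line with the transgene, the 60 min library is not analysed here. The medium held LIF, the MEK inhibitor PD0325901 and the GSK3 inhibitor CHIR99021, which keep cells on gelatin in a naive state, and libraries were made by Omni-ATAC, in which the transposase Tn5 cuts and tags open DNA. Each genotype is 1 line, so genotype and line cannot be told apart, and libraries of a line differ in time rather than being separate cultures of 1 condition. Total counts per library ranged from 5725518 to 14977148 with a median of 7664147. All 8 embryonic stem cell marker genes looked up, such as Pou5f1, Nanog and Esrrb, had an interval within 1000 bp of their start. Their summed levels were 316 to 388 CPM (counts scaled to a library of fixed size) over all libraries, scaled by total counts. Of 8 fibroblast or feeder cell markers, 1 (Twist2) had such an interval, at 12.3 to 18.4 CPM on the same scale. For the other 7 no such interval was found in the table used here.

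Forkhead proteins bind DNA through a winged-helix domain, and Sox proteins through an HMG box that bends the double helix. Both families hold many of the regulators that set cell fate in the embryo: forkhead factors of endoderm, mesoderm, placodes and ciliated cells, and Sox factors of the nervous system, cartilage, vessels and germ cells. Many of these genes are silent or low in embryonic stem cells, and promoters of developmental regulators commonly lie in CpG islands that stay accessible before the gene is used. ATAC-seq reports that accessibility and not transcription.

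The promoter sequences of 5 members show the range of base composition under these intervals: 4 of the members described below as more accessible in the knockout control (Sox12, Sox14, Sox15 and Sox30), and Foxi1, one of the members with the lowest level, which did not pass the test. Each is the 250 bases before the start site from RefSeq (GRCm38.p6, the mm10 build), written 5′ to 3′ on the gene's own strand, with every CG pair in capitals. In the order printed, the positions are chr2:152398047-152398296 (minus strand), chr9:99876171-99876420 (minus), chr11:45980060-45980309 (plus), chr11:69654787-69655036 (plus) and chr11:34208090-34208339 (minus).
Sox12: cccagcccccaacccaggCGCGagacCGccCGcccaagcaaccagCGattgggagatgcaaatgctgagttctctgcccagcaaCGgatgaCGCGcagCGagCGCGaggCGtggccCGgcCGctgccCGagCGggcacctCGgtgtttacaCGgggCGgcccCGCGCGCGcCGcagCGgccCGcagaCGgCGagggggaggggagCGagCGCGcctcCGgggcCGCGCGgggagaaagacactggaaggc
Sox14: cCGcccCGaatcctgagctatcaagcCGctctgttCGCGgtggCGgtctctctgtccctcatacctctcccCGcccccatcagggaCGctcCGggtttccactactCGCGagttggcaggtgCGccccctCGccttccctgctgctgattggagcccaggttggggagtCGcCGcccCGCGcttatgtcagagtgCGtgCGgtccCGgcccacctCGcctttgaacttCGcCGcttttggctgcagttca
Sox30: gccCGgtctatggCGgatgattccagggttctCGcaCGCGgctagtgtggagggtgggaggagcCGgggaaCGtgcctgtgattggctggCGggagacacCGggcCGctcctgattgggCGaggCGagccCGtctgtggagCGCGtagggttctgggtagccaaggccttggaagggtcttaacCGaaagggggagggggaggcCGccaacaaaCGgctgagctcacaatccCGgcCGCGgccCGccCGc
Sox15: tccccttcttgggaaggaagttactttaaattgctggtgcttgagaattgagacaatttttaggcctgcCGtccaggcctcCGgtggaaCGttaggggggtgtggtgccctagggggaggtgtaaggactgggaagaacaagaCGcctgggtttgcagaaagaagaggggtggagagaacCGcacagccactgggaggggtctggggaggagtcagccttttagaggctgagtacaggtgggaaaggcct
Foxi1: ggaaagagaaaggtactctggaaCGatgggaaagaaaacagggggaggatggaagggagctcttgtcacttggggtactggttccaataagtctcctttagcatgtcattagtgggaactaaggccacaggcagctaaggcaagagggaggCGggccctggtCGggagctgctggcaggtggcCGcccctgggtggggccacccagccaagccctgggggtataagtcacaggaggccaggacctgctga

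The Sox12 stretch held 35 CG pairs, and those of Sox14 and Sox30 held 23 each. Sox15 held 5 and Foxi1 held 4, so the stretches printed for members called below were both CG-rich and CG-poor. Each stretch covers only part of its interval. The RefSeq start used lay 514.5 bp (Sox14) and 277 bp (Sox15) from the start that the annotation used. Of the 37 members, 24 had an entry in the RefSeq start table and 19 of these held their own listed start inside the interval. Over the 19, windows of 300 bases (250 before to 50 after the start) had a median GC content of 63.0% and a median of 22 CG pairs (range 5 to 47). A CpG ratio, the observed over the expected number of CG pairs, of at least 0.6 was found in 14 of the 19 windows (73.7%), against 37.1% of 25729 other promoter windows and 64.9% of 7620 windows of other protein-coding genes with an interval within 1000 bp. On this measure the 19 member windows were close to those of other genes with a nearby interval. The sets were not chosen alike: member starts had to lie inside the interval, while the others took 1 listed start per gene. The other windows also left out 1 autosome, on which no member lies.

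Letters recognised by the families' own proteins were found in a few of the windows. The forkhead core TGTTTAC, searched on both strands, was in 2 of 19 windows (10.5%; Foxa1 and Sox12) and in 2.17% of the windows of other genes with a nearby interval; in the Sox12 stretch printed above it stands near the middle, between CG pairs. Of the Sox letters, ACAATG was in 0 of 19 windows (7.65% of the other genes' windows) and ACAAAG in 3 of 19 (15.8%; Foxa1, Foxb2 and Sox15; 13.9% of the others). Both Sox motifs were also searched on both strands and share the letters ACAA at their start, and a match is only a description of sequence.

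The members were wide intervals. Their median width was 1964 bp (241 to 3460 bp), and 18 of 37 (48.6%) spanned at least 2000 bp, compared with 12.9% of the 16363 other autosomal intervals near a start, whose median was 1218 bp. Interval centres lay between -581 and 875 bp from the annotated start (negative values are upstream), 7 of them within 100 bp and 23 within 500 bp. The annotation labelled 19 members promoter, 13 exon, 4 intron and 1 a termination site, the last being Sox15, whose interval (chr11:69654473-69657905) reached the end of a neighbouring gene. Among the listed RefSeq starts, intervals of Foxf1, Foxl2 and Foxn3 also held the start of another gene, namely Fendrr, Foxl2os and Gm26839, so counts there cannot be assigned to 1 gene. Only 24 of the 37 members had a RefSeq entry themselves, so starts of other genes may be missing too. The last members inside the distance limit were Foxc2 (829 bp), Sox4 (841 bp) and Sox15 (875 bp), and the nearest intervals outside it were those of Sox10 (1006 bp), Sox21 (1064 bp) and Foxd4 (1081 bp). On CPM from total counts, Sox15 averaged 40.7 ± 3.12 in the wild type control (SD, n = 6), and Sox21, just outside, averaged 42.2 ± 2.28.

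Accessibility per length was highest at Foxo6, Sox12 and Foxn2, and most members lay well below them. Because a wide interval collects more counts, levels of different genes were compared as CPM per kb of interval, scaled by the trimmed mean of M-values (TMM), in the 6 wild type control libraries. The highest was Foxo6, the member of the insulin-regulated FoxO group that is known mainly from the brain, at 32.0 ± 3.54 CPM per kb (SD, n = 6). Sox12, a group C factor related to Sox4 and Sox11, followed at 23.9 ± 1.93, and Foxn2 at 18.2 ± 0.469. Foxk1, a broadly expressed forkhead repressor, and Sox30, a factor of male germ cells, both averaged 15.2 (SD 2.17 and 1.33) and did not differ beyond their spread.

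At the low end, Foxo3, a stress-responsive FoxO factor, had 2.95 ± 1.03 CPM per kb in the wild type control. Sox5, a group D factor of cartilage and neurons, had 3.44 ± 0.639. Foxn1, the thymic epithelium factor mutated in nude mice, had 4.12 ± 2.42, Foxi2 of the placodes and cranial ectoderm 4.26 ± 0.578, and Foxl1 of the gut mesenchyme 4.93 ± 0.388. The SD of Foxn1 is wider than any step between these 5 neighbours in the order. The intervals of Foxo3 (chr10:42258224-42258535) and Foxn1 (chr11:78386362-78386602) were short, held 2 to 17 counts in a library, and did not pass the filter on low counts, so 35 of 37 members were tested. The RefSeq start lay outside the interval for 5 matched members (Foxj2, Foxn1, Foxn3, Foxo3 and Sox5), by as much as 262896 bp from the centre for Sox5, so the start that the annotation used for them is not the one in that table.

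By role, 6 forkhead factors (Foxj2, Foxk1, Foxn2, Foxn3, Foxo3 and Foxo6) had been listed together as broadly expressed, although Foxo6 is known mainly from the brain. Their median was 13.5 CPM per kb in the wild type control, with both extremes of the whole set, 2.95 and 32.0, among them, and it was 11.8 without Foxo6. For Foxj2, Foxn3 and Foxo3 the listed RefSeq start lay outside the interval, 6097, 113301 and 18315.5 bp from its centre. Their levels, the 2.95 of Foxo3 included, therefore need not be those of the promoter at that start. The 10 forkhead factors of endoderm, mesoderm and mesenchyme, such as Foxa1, Foxf1 and Foxh1, had a median of 9.65 (4.93 to 14.2). The 12 forkhead factors of neural, placodal, epithelial, immune and ciliated cells, such as Foxj1, Foxp2 and Foxi1, had a median of 7.97 (4.12 to 11.6). Lineage forkhead promoters thus ran from among the lowest levels of the set (Foxn1, 4.12) to intermediate ones. The highest was Foxh1, the partner of Smad proteins in Nodal signalling, at 14.2.

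Among Sox groups, Sox4, Sox11 and Sox12 (group C) had a median of 12.1 CPM per kb, and Sox15 and Sox30 (groups G and H) a median of 13.3. Sox5 and Sox13 (group D) had 6.19, Sox18, a group F factor of vessels, 9.21, and Sox14, a group B2 repressor of interneurons, 6.46. No group E gene had a member. On CPM from total counts the members' median was 9.29 CPM per kb, between 8.51 for the other autosomal intervals near a start and 10 for those of them at least 2000 bp wide, and 24 of 37 lay above the first of these medians.

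**Figure D1:**
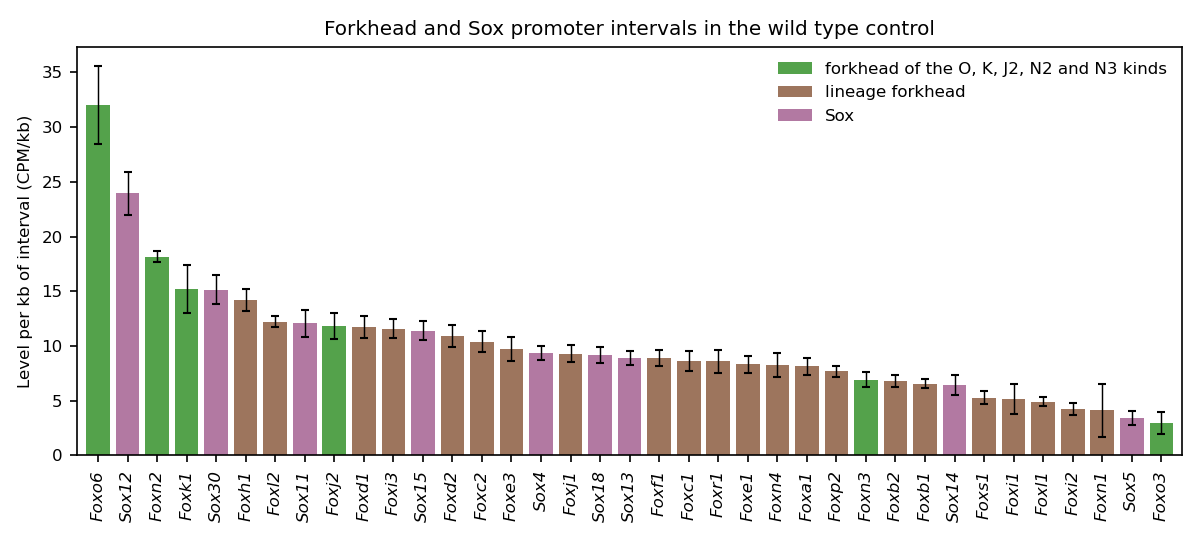
Mean level of the 37 members in the wild type control, in CPM per kb of interval, as bars with the SD of 6 libraries, coloured by the list of 6 forkhead genes described above, lineage forkhead and Sox genes. Foxo6 (32.0) and Sox12 (23.9) stand above the others, and Foxo3 (2.95), whose interval did not hold its listed RefSeq start, is lowest.

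The genotype comparison of the control lines asked whether loss of Firre went with a different accessibility of these promoters. The knockout control was more accessible than the wild type control at 7 of the 35 tested members (20%) and less accessible at none (edgeR quasi-likelihood test, Benjamini-Hochberg adjusted over 129515 intervals, called at an adjusted p of 0.05 or less). The 7 were Sox14, Foxo6, Sox12, Sox30, Sox15, Foxn2 and Foxj1, and their differences were 0.26 to 0.43 on the log2 scale. The share called in either direction was 7.97% over all tested intervals, with 5.5% higher. Among the 16103 tested intervals near a start 16.4% were higher, so the share of the members was close to that of promoters in general. The members' median difference was 0.09, the same as over all tested intervals near a start, and it was -0.02 over all intervals tested. The differences ran from -0.15 (Foxf1) to 0.43 (Sox14), 24 positive and 11 negative, and 11 members had an unadjusted p under 0.05. That was 31.4% of the members, against 22.2% of all tested intervals and 34.8% of those near a start.

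These calls depended on how libraries were scaled: with total counts in place of TMM 5 members were higher and 1 (Foxf1, -0.24) lower, and with loess offsets 1 (Sox14) was higher and 2 (Foxe1, -0.22; Foxf1, -0.31) lower. The share of counts near start sites moved with the same groups. Here and below, that share also takes in intervals labelled promoter farther than 1000 bp from a start. It averaged 42.1% ± 0.964 in the knockout control and 39.0% ± 0.592 in the wild type control (SD, n = 6 each). With that share as a covariate edgeR called 0 members and 56 of all tested intervals. In that fit Foxj1, Sox15, Sox14 and Sox30 had differences of 0.34, 0.31, 0.27 and 0.21, while Sox12, Foxn2 and Foxo6 had 0.066, 0.014 and -0.046 (adjusted p from 0.292 for Sox15 to 0.985 for Foxn2). Of the 7, 3 (Sox15, Foxj1 and Sox30) had an unadjusted p under 0.05 there. Without the knockout control libraries at 30 and 90 min, whose shares were 2 of the 3 highest, only Sox14 was called. For that fit and those with total counts or loess offsets, the share called over all intervals is not given here. The changes in these counts therefore cannot be read as particular to the members. On CPM from total counts, the summed level of the embryonic stem cell markers was 316 to 333 in the wild type control and 329 to 387 in the knockout control. On the same scale, Twist2 lay at 15.6 to 17.7 and 12.7 to 16.4. The part of the promoter share or of the markers in the differences was not tested. Bulk libraries also cannot tell more cells with an open interval from more accessibility per cell.

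The Sox group held 4 of the 7. Sox12 ranged from 76.7 to 93.8 CPM in the wild type control (median 80.2) and from 98.2 to 132 in the knockout control (median 105), so that the groups did not overlap. Its difference was 0.40 ± 0.09 (SE; edgeR, adjusted p = 0.000671). Sox30, at chr11:45979533-45981237, ranged from 22.4 to 28.2 CPM (median 26.1) in the wild type control and from 29.0 to 35.9 (median 32.1) in the knockout control, again with no overlap. The difference was 0.32 ± 0.08 (edgeR, adjusted p = 0.00743).

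Sox14, the repressor of group B2, had the largest difference at a low level. The wild type control lay between 10.4 and 14.5 CPM (median 11.7) and the knockout control between 13.4 and 18.1 (median 16.6), with the knockout library at 60 min inside the wild type range. The difference was 0.43 ± 0.10 (edgeR, adjusted p = 0.00127), and the call was lost under 1 of the 33 alternatives fitted, the covariate above. Sox15, a group G gene that is active in embryonic stem cells, ranged from 34.8 to 43.3 CPM (median 39.4) in the wild type control and from 41.7 to 55.7 (median 49.8) in the knockout control, overlapping slightly. It differed by 0.31 ± 0.08 (edgeR, adjusted p = 0.00658).

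Of the 26 forkhead members tested, 3 were called. Foxo6, at chr4:120286898-120288352, ranged from 37.4 to 50.9 CPM (median 48.9) in the wild type control and from 50.6 to 71.7 (median 63.7) in the knockout control. Only the lowest knockout library, at 60 min, lay below the highest wild type library, and the difference was 0.40 ± 0.09 (edgeR, adjusted p = 0.000778). Foxn2, at chr17:88439760-88442057 in a first intron, had closely spaced wild type values, 40.7 to 43.7 CPM (median 41.6), and lay at 46.1 to 59.4 (median 49.0) in the knockout control with no overlap. The difference was 0.28 ± 0.08 (edgeR, adjusted p = 0.0211). That call was lost under 8 of the 33 alternatives, among them leaving out the knockout control at 30 or 90 min or the wild type control at 90 or 150 min, each alone (0.23 to 0.26; edgeR, adjusted p = 0.0702 to 0.118). Sox12, Sox15, Sox30 and Foxo6 each lost theirs under 3, namely loess offsets, the covariate and the removal of both knockout control libraries, and under no single left-out library.

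Foxj1, which drives the programme of motile cilia, was the weakest call. Its interval at chr11:116334013-116335958 held 16.2 to 20.7 CPM (median 17.7) in the wild type control and 20.1 to 25 (median 21.2) in the knockout control. The difference was 0.26 ± 0.09 (edgeR, adjusted p = 0.0424), and it missed the threshold with DESeq2 and under 14 other alternatives. All 7 called members were higher in the knockout control at 6 of 6 matched times. They were called from these same libraries, so this describes the calls and adds no support. Of all 37 members, 3 (Sox12, Sox30 and Foxn2) had every knockout control library above every wild type control library, a pattern found in 2.29% of all tested intervals and in 7.66% of those near a start. Next in order were Foxp2, a neural factor, at 0.25 ± 0.09 (edgeR, adjusted p = 0.0551) and Foxj2 at 0.24 ± 0.09 (edgeR, adjusted p = 0.0867), both also higher at 6 of 6 times but not called.

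**Figure D2:**
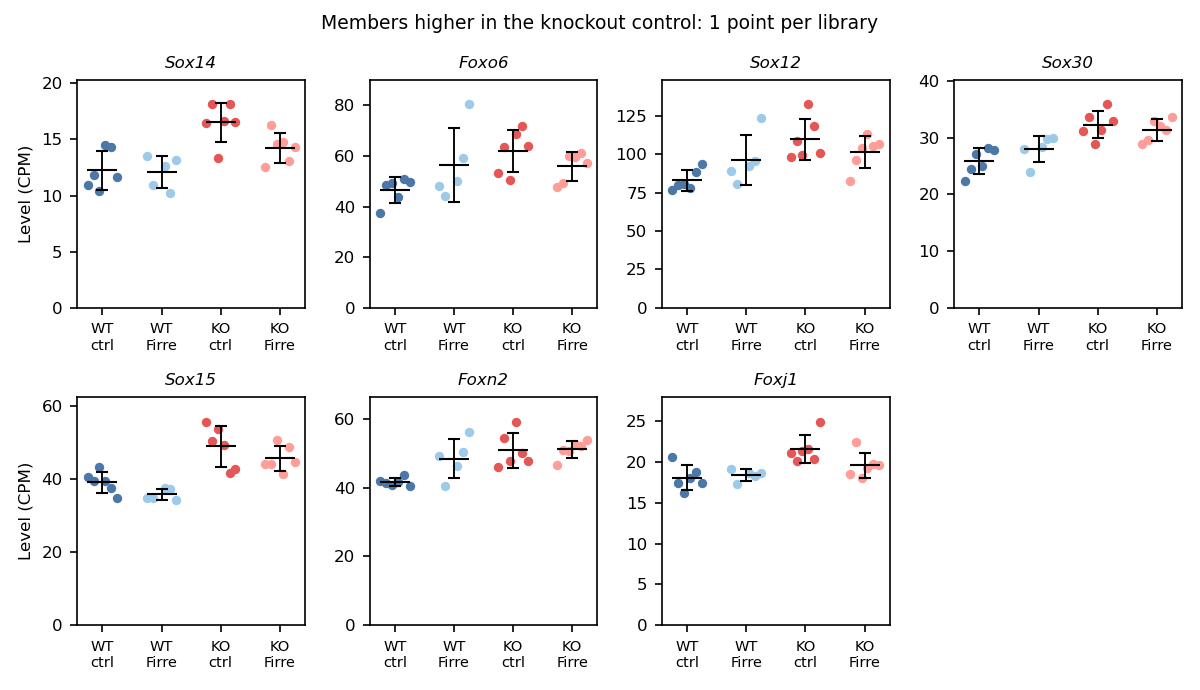
Level in CPM of the 7 called members, 1 panel each, with 1 point per library by line (WT, wild type; KO, knockout; ctrl, control; points in order of time), and bars for the mean and SD. Knockout control values of Sox12, Sox30 and Foxn2 lie above all wild type control values, and the last library of the wild type Firre line is high for Sox12 and Foxo6.

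By role, the list of Foxj2, Foxk1, Foxn2, Foxn3, Foxo3 and Foxo6 had 2 of 5 tested members higher (median difference 0.24), and 1 of 4 without Foxo6 (median 0.21). The endoderm, mesoderm and mesenchyme factors had 0 of 10 (edgeR; median 0.05; 1 of them, Foxd2, had an unadjusted p under 0.05) and the neural, placodal, epithelial, immune and ciliated factors 1 of 11 (median 0.02). Sox groups G and H had 2 of 2, group C 1 of 3, group B2 1 of 1, group D 0 of 2 and group F 0 of 1, the last groups with 0 at an unadjusted p under 0.05. Lineage factors outside both families, a list of 31 tested promoters, had 2 higher, with a median of 0.09. Roles were assigned with earlier results of these data known, so these counts describe and test nothing.

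Of the 7 called members, 3 lie on chromosome 11 in mm10: Foxj1, Sox15 and Sox30, of 4 members tested there; Foxi1, the other one, had -0.11 ± 0.21 (edgeR, adjusted p = 0.817). On that chromosome 524 of 1233 tested intervals near a start were higher in the knockout control, with a median difference of 0.26. Off chromosome 11, 4 of 31 tested members were higher and their median was 0.07. Of all tested intervals near a start off chromosome 11, 2112 of 14870 (14.2%) were higher, so the members' share there was close to that of other promoters. The part of the chromosome-wide difference in the 3 calls on chromosome 11 was not tested.

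**Figure D3:**
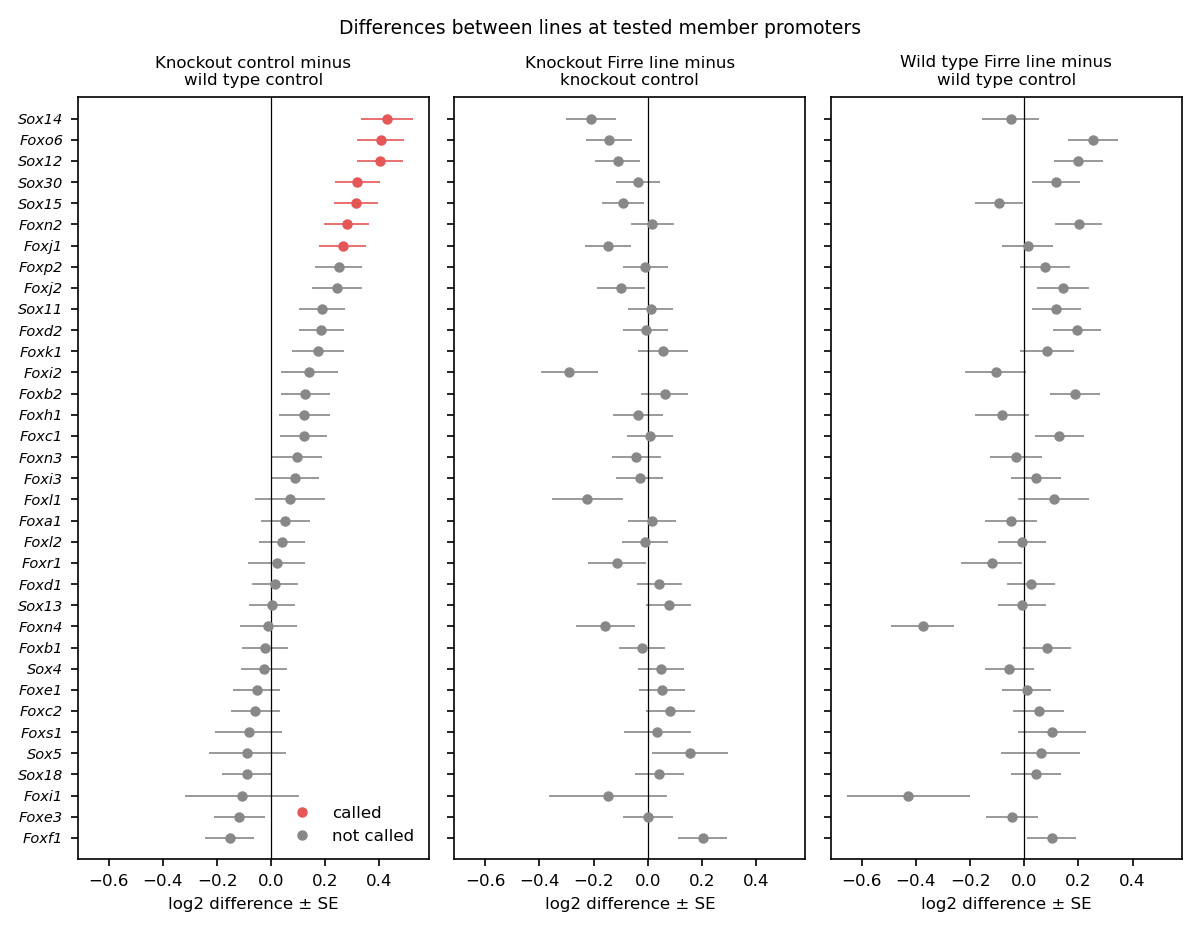
Log2 differences of the 35 tested members, with SE, for the knockout control against the wild type control and for each Firre line against its control. The 7 called members of the first comparison are red, and no member was called in the others.

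The transgene comparisons asked whether inducing Firre changed these promoters in either background. In the knockout background 0 of 35 members were called between the Firre line and the control over all times (edgeR; also 0 with DESeq2 and limma-voom), where 0.913% of all tested intervals were called; 3 members had an unadjusted p under 0.05. Those 3 were 8.57% of the members, against 12.3% of all tested intervals and 9.69% of those near a start. The median difference was -0.01 (range -0.29 to 0.20). Foxi2 ranged from 9.64 to 13.0 CPM (median 10.9) in the knockout control and from 7.90 to 10.6 (median 9.02) in its Firre line, overlapping, and was lower by 0.29 on average without passing the test (-0.29 ± 0.11; edgeR, adjusted p = 0.183). Sox14 had -0.21 ± 0.09 (edgeR, adjusted p = 0.314) and Foxf1, a factor of lung and gut mesenchyme, had 0.20 ± 0.09 (edgeR, adjusted p = 0.318). None of these differences can be called larger than the spread between libraries after adjustment.

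In the wild type background 0 of 35 members were called (edgeR; also 0 with DESeq2 and limma-voom), with 0.0818% called over all intervals and 6 members at an unadjusted p under 0.05. Those 6 were 17.1% of the members, against 7.55% of all tested intervals and 12.5% of those near a start. The median was 0.04 (range -0.43 to 0.25). Foxn4, a factor of retinal amacrine cells, was 9.19, 9.55, 7.19, 6.05 and 8.05 CPM at 0, 30, 90, 120 and 150 min in the Firre line and 8.50 to 12.2 CPM (median 10.4) in the control, with overlap. Its difference was -0.38 ± 0.12 (edgeR, adjusted p = 0.302). Foxo6 in the wild type Firre line was 48.2, 44.0, 50.2, 59.3 and 80.3 CPM at the same times, so the 150 min library stood above the rest. The libraries at 120 and 150 min both lay above all wild type control libraries, the highest of which held 50.9 CPM. Its difference over all times was 0.25 ± 0.09 (edgeR, adjusted p = 0.463), and that of Foxn2 was 0.20 ± 0.09 (edgeR, adjusted p = 0.58). Sox12 in the same line was 88.9, 80.8, 92.3, 95.4 and 123 CPM, also highest at 150 min, and again above the highest wild type control library (93.8) at 120 and 150 min.

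The difference between the transgene effects in the 2 backgrounds was called for 0 of 35 members (edgeR; also 0 with DESeq2 and limma-voom), against 0.266% of all intervals, with 2 members at an unadjusted p under 0.05. Those 2 were 5.71% of the members, against 10.6% of all tested intervals and 12.5% of those near a start. Foxo6 had -0.40 ± 0.13 (edgeR, adjusted p = 0.165), Sox12 -0.31 ± 0.12 (edgeR, adjusted p = 0.316) and Foxj2 -0.24 ± 0.13 (edgeR, adjusted p = 0.519). A negative value means that the transgene line stood lower against its control in the knockout than in the wild type background. Without the knockout control at 150 min, Foxo6 alone passed (-0.44; edgeR, adjusted p = 0.031).

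Over time, the mean Firre response from 30 to 150 min relative to 0 min, with the 2 backgrounds as replicates, was called for 0 of 35 members (edgeR; also 0 with DESeq2 and limma-voom) and 0% of all tested intervals. The members' median was -0.06 against 0.01 over the tested intervals near a start, with 12 positive and 23 negative. The only member with an unadjusted p under 0.05 was Foxf1, at -0.42 ± 0.17 (edgeR, adjusted p = 1). The doxycycline response of the control lines was likewise called for 0 of 35 members (edgeR; also 0 with DESeq2 and limma-voom) and 0% of intervals, with a median of 0.06 and 2 members under an unadjusted p of 0.05. The larger of these was Foxo6, at 0.31 ± 0.12 (edgeR, adjusted p = 0.929). For the Firre response, an unadjusted p under 0.05 was found in 2.86% of members, 3.77% of all tested intervals and 2.78% near a start. For the doxycycline response the same shares were 5.71%, 5.27% and 5.44%.

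The summed level of the 37 members was 769 ± 21.2 CPM in the wild type control (SD, n = 6; 740 to 805) and 867 ± 43.1 in the knockout control (n = 6; 817 to 922), so the libraries of these groups did not overlap on this scale. On total counts the members held 0.0845% ± 0.00208 of the counts in the knockout control (0.0815 to 0.0871) and 0.0800% ± 0.00172 in the wild type control (0.0781 to 0.0831), a smaller difference with overlapping ranges. On the first scale the knockout Firre line had 845 ± 27.2 (n = 6; 797 to 869), and the wild type Firre line 811 ± 65.8 (n = 5; 734 to 916). The 3 highest sums belonged to the knockout control at 90 min (922), the wild type Firre line at 150 min (916) and the knockout control at 30 min (912). The same 3 libraries had the 3 highest shares of counts near start sites, at 43.1%, 44.3% and 43.1%. The part of that share in the sums was not tested.

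**Figure D4:**
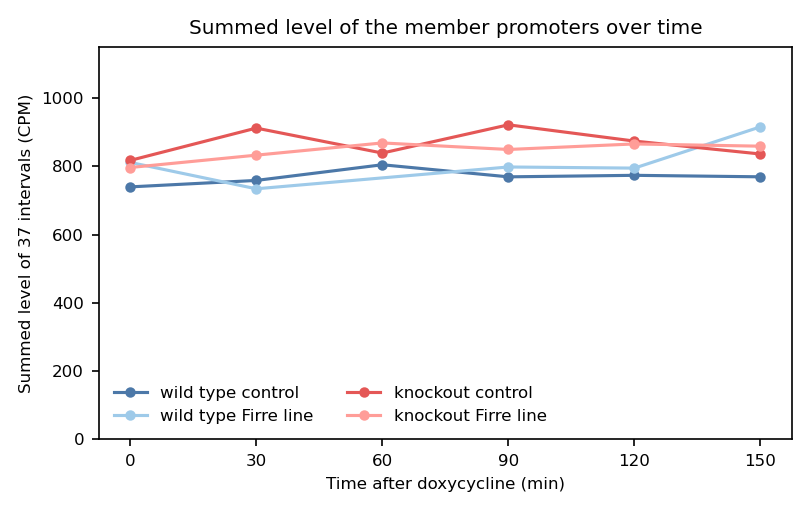
Summed accessibility of the members in CPM against minutes after doxycycline, with 1 point per library and 1 line per cell line. The knockout control lies above the wild type control at every time, and the wild type Firre line is at 795 at 120 min and 916 at 150 min, with its line drawn straight across 60 min, where no library was analysed.

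Beyond the promoters, the 37 genes carried 174 further intervals, 159 of them tested. They were most numerous at Foxo3 (21), Foxk1 (18), Sox11 (14) and Sox5 (14). Between the control lines 7 were higher and 3 lower in the knockout, which is 6.29% called, below the 7.97% of all tested intervals. Of the called promoters, Sox12 and Foxn2 each had a more distant interval that was also higher, by 0.27 at -8230 bp and by 0.34 at 27771 bp (edgeR, adjusted p = 0.048 and 0.0107). Another of the 7, assigned to Foxh1 by distance (-1859 bp), carries the promoter label of the neighbouring gene Ppp1r16a, so it cannot be assigned to Foxh1. It averaged 23.4 ± 2.23 CPM in the wild type and 30.4 ± 4.36 in the knockout control (0.37 ± 0.09; edgeR, adjusted p = 0.00293). Intervals of Foxo3, Foxo6 and Foxn4 were lower, with differences of -0.90, -0.58 and -0.55 (edgeR, adjusted p = 0.0168, 0.0404 and 0.0254), the Foxo6 one lying 44474 bp from a promoter that was higher.

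In the knockout background, 2 of the 159 distal intervals (1.26%) were higher in the Firre line, close to the 0.913% called over all intervals: one in an intron of Foxn1 (chr11:78369976-78371288; 0.37 ± 0.10; edgeR, adjusted p = 0.0413) and an intergenic one near Foxn4 (chr5:114286875-114287932; 0.40 ± 0.10; edgeR, adjusted p = 0.0344). The first averaged 9.82 ± 0.774 CPM in the knockout control and 12.7 ± 0.957 in the Firre line, and the second 8.18 ± 0.427 and 10.8 ± 0.973 (SD, n = 6 each). The 13 genes without a member had 47 intervals, 45 tested. Of these, 7 were higher in the knockout control (15.6%, with 4 of Foxp4, 2 of Sox9 and 1 of Sox6), and 1, of Sox6, was lower. The share higher was 5.5% over all tested intervals and 16.4% over those near a start. Both Sox9 intervals lie on chromosome 11, described above, and 1 of them is centred 1088 bp from the start, just outside the limit. With 4 of the 7 from 1 gene, the share does not describe the families as a whole.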

How the data were processed

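The authors deposited raw counts, as whole numbers for each consensus interval, and 23 libraries were used. The submitters' processing notes name mm10, MACS2 2.2.7.1 and featureCounts. No source used here gives the aligner, duplicate removal, the Tn5 shift or how peaks were merged. Distances, labels and coordinates are those of the authors' annotation.

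All intervals were fitted with edgeR 4.0.16 (R 4.3.3; filterByExpr with a minimum count of 10, TMM, robust quasi-likelihood), with line and time as terms (14 residual degrees of freedom). The Firre and doxycycline responses came from a fit with transgene by time. p-values were adjusted over all 129515 tested intervals, and since no label names separate cultures, they reflect only the spread between these libraries. SE is the log2 difference over the root of F. CPM uses TMM-scaled totals unless stated. DESeq2 1.42.0, limma 3.58.1, other scalings and filters, a promoter share covariate and left-out libraries were alternatives, and scripts were tested on simulated data.

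Members and lists were chosen with earlier results of these data known. Named were all called members, the 3 with the smallest p in each other comparison between lines, and the 5 with the highest and the 5 with the lowest level per kb; any other was chosen after its values were seen. At these totals a count of 0 allows up to 3 counts, for counting error only.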

Additional observations from a re-analysis of the deposited data

Results flagged for a closer look

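Among 156 sets of values (each member, the members' sum and the share of counts near starts, in each line), 10, all of single members, held a library far from the others by Dixon's test, which chance alone flags in about 1 of 20 sets. Foxb1 was low in the wild type control at 0 min (19.0 CPM against 21.5 to 22.9 in the others) and high at 150 min in the wild type Firre line (26.2 against 21.6 to 22.5). Foxd2 was high in the wild type control at 60 min (39.8 against 31.2 to 33.5) and at 150 min in the wild type Firre line (45.2 against 35.6 to 37.2). Foxi1 was high in the knockout Firre line at 0 min (4.41 against 1.28 to 2.26), and Foxj1 in the knockout control at 150 min (25 against 20.1 to 21.5). Foxn1, which did not pass the count filter, was high in the wild type control at 0 min (2.12 against 0.560 to 1.04), and Foxp2 at 90 min (22.9 against 19.3 to 20.6). Sox14 was low in the knockout control at 60 min (13.4 against 16.4 to 18.1), and Sox18 was high at 90 min in the wild type Firre line (18.4 against 15.6 to 16.3).

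Of the 159 tested distal intervals of the member genes, 2 (1.26%) differed in transgene effect between the backgrounds, in the test of the difference itself. Over all tested intervals the share was 0.266%. Both intervals lay at low levels. An interval in an intron of Foxn1, 18032 bp from its start (chr11:78368370-78368682), had a difference of 1.54 ± 0.34 (log2, SE; edgeR, adjusted p = 0.0168). It averaged 1.59 ± 0.442 CPM (SD) in the knockout control and 2.60 ± 0.607 in its Firre line. The wild type control averaged 2.30 ± 0.634 and its Firre line 1.36 ± 0.314. An interval in an intron of Foxn4, 2419 bp from its start (chr5:114271029-114271631), had a difference of 1.02 ± 0.24 (edgeR, adjusted p = 0.0315). It averaged 2.93 ± 0.481 CPM (SD) in the knockout control and 3.88 ± 0.313 in its Firre line. The wild type control averaged 4.33 ± 0.960 and its Firre line 2.91 ± 0.607.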

How the results depend on the processing

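The 7 members called between the control lines numbered 6 with DESeq2, 7 with limma-voom, 6 with total counts (5 higher, 1 lower), 7 without the count filter or without the time term, and 6 of 21 tested within 500 bp. The count moved to 3 with loess offsets, to 0 once the share of counts near starts was a covariate, and to 1 when 2 knockout control libraries (30 and 90 min) were dropped. The cause was not tested. Apart from the covariate fit, the matching counts over all intervals are not given here, so these changes cannot be read as particular to the members. Leaving out 1 library gave 5 to 8, the lowest when the 90 min knockout control, or the 90 or 150 min wild type control, was dropped. Under the covariate Foxo6 reversed to -0.046 between the control lines and to -0.022 between the wild type lines (edgeR, adjusted p = 0.937 and 0.983). Counts were 0 under every alternative run for both transgene comparisons and both responses over time. The difference of the transgene effects gave 0 to 1 over left-out libraries, 1 being Foxo6 without the knockout control at 150 min. The planned filter of at least 1 CPM in 5 libraries kept more intervals than the main one, and a filter of 2 CPM was added after seeing the data; both gave 7. Cultures could not be paired, because the libraries of a line are time points and no label pairs cultures across lines. Time was a term in every main fit, so the comparisons between lines were adjusted for time.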
